A study of Williopsis jadinii with 2 samples.

Results

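Among 5880 genes of the yeast Cyberlindnera jadinii, 101 genes (1.72%) had a low transcript level in a culture moved to glucose and a level at least 4-fold higher in a culture moved to xylose. They were selected on the measured values themselves: a coding length above 300 bases, at least 50 read counts over both libraries, a glucose level below 10 CPM, and a ratio of (xylose CPM + 1) to (glucose CPM + 1) of at least 4. CPM is a gene's count per 1000000 counts of its library, with no other scaling. That these genes are higher in xylose is therefore how they were chosen and not a finding, and every value given for them is a description.

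The xylose library came from wild-type cells of strain NBRC0988 that spent 5 h at 30 °C and 250 rpm in fresh YEP, a rich yeast extract and peptone medium, with 2% (w/v) xylose. The glucose library came from the same wild type moved for the same time into YEP with 2% (w/v) glucose. All cells had first grown for 15 h in a glucose medium and were washed before the transfer, so the xylose culture was 5 h past its last glucose. Each sugar had 1 library, with 13061052 counts for xylose and 14728899 counts for glucose, so nothing measures the spread between cultures and no test between the sugars was possible. All intervals below are 95% intervals. They reflect the error of counting alone and assume independent reads, which PCR copies are not.

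Xylose is a pentose of plant cell walls. Yeasts that can use it generally reduce it to xylitol, oxidise xylitol to xylulose and phosphorylate xylulose, which then enters the pentose phosphate pathway. In the well-studied yeast Saccharomyces cerevisiae, glucose represses many genes for the use of other carbon sources, and the transcripts of some of them appear once glucose is gone. Which of the 101 genes, if any, take part in such processes is not known here, because the files name genes only by running IDs and pair none with a gene name, product or sequence. None of the IDs (0 of 101) occurred among the 6184 genes of the species' RefSeq table (assembly Cybja1, made from another strain), so no gene list could be matched and no role is given for any gene.

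The genes were not silent in glucose. None of them (0 of 101) had 0 counts there. Their glucose counts ran from 2 to 146, with a median of 72, and their xylose counts ran from 82 to 6246, with a median of 534. Below 1 CPM in glucose were 7 genes, below 2 CPM were 14 and below 5 CPM were 53. Across all 5880 genes, 20 had counts in xylose and none in glucose. The highest of these had 25 xylose counts (1.91 CPM) and the median 4, too few for the minimum of 50 and for the ratio of 4. The level that an observed 0 still permits is that of 3 counts, which is 0.230 CPM in xylose and 0.204 CPM in glucose. Most of the 101 genes were thus low and measurable in glucose, and "switched on" describes at most the few with almost no glucose reads.

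**Figure D1:**
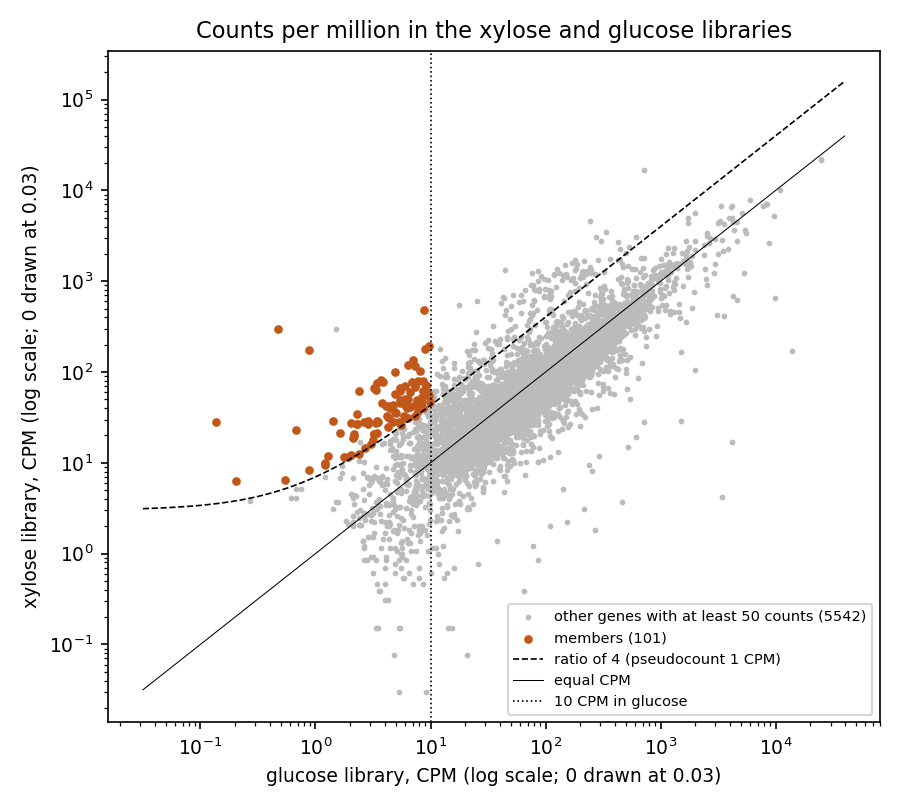
CPM in the xylose library (vertical axis) against the glucose library (horizontal axis), both on log scales, for the 5643 genes with at least 50 counts, with the 101 selected genes in orange and a CPM of 0 drawn at 0.03. The selected genes lie left of the 10 CPM line and above the dashed line of a ratio of 4, with 7 of them below 1 CPM in glucose.

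The selection is read against its background. Of all 5643 genes with at least 50 counts, 284 (5.03%) reached the ratio of 4 towards xylose. Of the 477 genes that passed the length, count and glucose limits, 101 (21.2%) reached it. A limit on the glucose level favours genes that are higher in xylose, so nothing is read from the difference between these percentages. The same limit set on xylose gave 70 of 493 genes (14.2%) at least 4-fold lower in xylose, against 142 of all 5643 genes (2.52%). Of the 477 genes, a further 77 were 2- to 4-fold higher in xylose, 223 were within 2-fold, and 76 had a xylose level lower by 2-fold or more, 15 of them by 4-fold or more.

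The 101 genes together made up 0.550% of the counts in xylose (interval 0.546% to 0.554%) and 0.0494% of those in glucose (0.0483% to 0.0506%). Their summed share was 11.1-fold higher in xylose. The sum was moderately concentrated: 1 gene held 8.70% of the group's xylose counts, 5 genes held 24.0%, and 22 genes held 50%. The 172 genes that met the same length, count and ratio conditions but had at least 10 CPM in glucose made up 13.4% of the counts in xylose and 1.75% in glucose. Of the 273 genes past the same length, count and ratio conditions, the 101 genes were 37.0%. They were a small part of the transcript pool in xylose. Their small share in glucose is fixed by the glucose limit, which also separates them from the 172 genes, so nothing is read from that contrast.

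Between genes, levels are compared as FPKM, the count per kilobase of coding length and per 1000000 counts, as the authors deposited it. The median level of the 101 genes was 36.1 FPKM in xylose (lower and upper quartile 20.2 and 52.0) and 3.98 FPKM in glucose (2.12 and 6.67). The median over all 5880 genes was 41.0 FPKM in xylose and 49.96 FPKM in glucose. In xylose, 39 of the 101 genes stood above the all-gene median, and in glucose none did. In glucose, 97 genes lay in the lowest quartile of all genes, and in xylose 21 still did. The median gene of the group stood at percentile 46.4 of all genes in xylose and at percentile 7.52 in glucose.

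**Figure D2:**
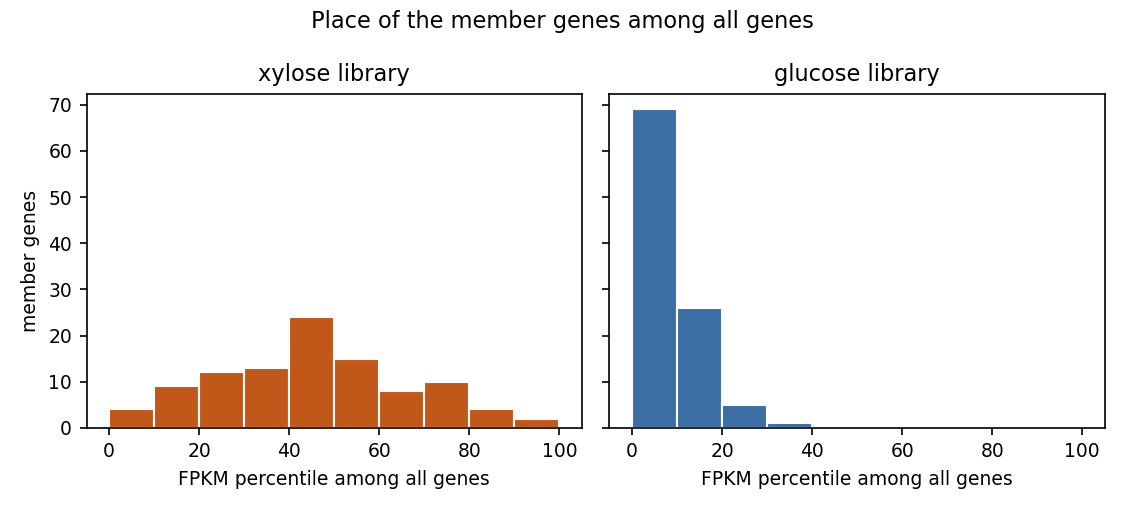
Number of the 101 genes in each 10-percentile bin of all 5880 genes ordered by FPKM, in the xylose library (left) and the glucose library (right). In xylose the genes spread over all bins with the most (24) between percentiles 40 and 50, while in glucose 69 lie in the lowest bin and none above percentile 40. The low places in the right panel follow largely from the glucose limit of the rule.

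High abundance in xylose was uncommon among them. In xylose, 9 genes lay in the highest quartile of all genes (above 114 FPKM), 30 in the second, 41 in the third and 21 in the lowest. The median fold, taken as xylose CPM over glucose CPM without a pseudocount, was 19.4 in the 9 genes of the highest quartile, 8.82 in the second, 8.29 in the third and 7.71 in the lowest. The median coding length in the same order was 600 bases, 777 bases, 1242 bases and 1743 bases. Both orders are largely built in. Ordering by xylose level favours large folds where the glucose level is capped, and FPKM divides by length. None of the 101 genes (0) reached the median level in xylose of the 172 genes of at least 10 CPM in glucose. That median was 609.8 FPKM, against 80.2 FPKM for those 172 genes in glucose. Much of this gap is built in, because the groups are split by glucose level and the shared ratio then demands more xylose CPM from the 172 genes.

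The 5 genes with the highest level in xylose were CJ0561, CJ5007, CJ0406, CJ2186 and CJ0643. CJ0561 (coding length 810 bases) had 6246 counts in xylose and 129 in glucose, which is 590.4 FPKM in xylose and 10.8 FPKM in glucose. It ranked 350 of 5880 genes in xylose and 4884 in glucose, and was 54.6-fold higher in xylose (interval 45.9 to 65.5). It was the most abundant of the 101 genes in xylose both per length and by counts, although its glucose count lay close under the 10 CPM limit.

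CJ5007 (393 bases) had 2340 counts in xylose and 133 in glucose, or 456 FPKM in xylose and 23.0 FPKM in glucose. CJ0406 (576 bases) had 1793 counts in xylose and 104 in glucose, or 238 and 12.3 FPKM in the same order. CJ0643 (600 bases) had 1570 counts in xylose and 94 in glucose, or 200.3 and 10.6 FPKM. These 3 short genes had folds of 19.8 (16.7 to 23.8), 19.4 (15.9 to 23.9) and 18.8 (15.3 to 23.4) towards xylose, which counting error does not separate. CJ5007 had the highest glucose level per length of the 101 genes, at rank 4108 in glucose and rank 426 in xylose.

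CJ2186 (1434 bases) came nearest to an on and off pattern with a substantial level. It had 3877 counts in xylose and 7 in glucose, or 207 FPKM in xylose and 0.331 FPKM in glucose, at rank 855 in xylose and rank 5754 in glucose. Its fold was 625 towards xylose, with an interval of 303 to 1555 that is wide because of the 7 glucose counts. These counts correspond to 0.475 CPM in glucose (interval 0.191 to 0.979), so even the upper bound lay under 1 CPM.

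**Figure D3:**
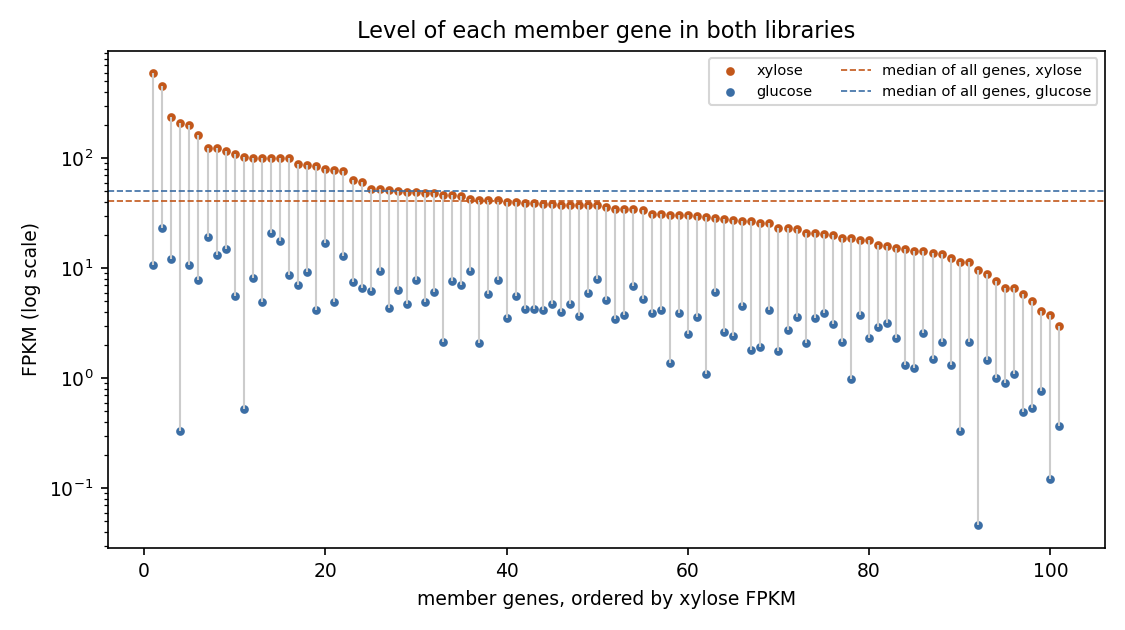
FPKM (log scale) of each of the 101 genes in the xylose library (orange) and the glucose library (blue), joined by a grey line and ordered by the xylose level, with the medians of all 5880 genes as dashed lines (41.0 in xylose, 49.96 in glucose). All blue points lie below both dashed lines, as the glucose and length limits require. Above the orange line lie 39 orange points. The longest grey lines belong to CJ2186, CJ4940 and CJ3952, with 7, 2 and 13 glucose counts, and the next longest to CJ0561, with 129.

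Besides CJ2186 and CJ0561, the 5 largest log2 ratios (with the pseudocount of 1 CPM) belonged to CJ3952, CJ4940 and CJ4941. CJ3952 (1680 bases) had 2263 counts in xylose and 13 in glucose, or 103 FPKM in xylose and 0.525 FPKM in glucose, and was 196-fold higher in xylose (115 to 369). CJ4940 (2940 bases) had 368 counts in xylose and 2 in glucose, or 9.58 and 0.0462 FPKM in the same order, a fold of 207 whose interval ran from 57.0 to 1720. CJ4941 (2151 bases) had 815 counts in xylose and 35 in glucose, or 29.0 and 1.10 FPKM, and a fold of 26.3 (18.7 to 38.0).

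The 5 log2 ratios were 7.66 for CJ2186, 6.53 for CJ3952, 5.62 for CJ0561, 4.68 for CJ4940 and 4.23 for CJ4941. A large ratio did not go with a high level in every case. CJ4940 had the fewest glucose counts of the 101 genes and lay in the lowest quartile of all genes in xylose, at rank 4957. CJ2773 (1659 bases), with the next fewest glucose counts, had 82 counts in xylose and 3 in glucose, or 3.78 FPKM in xylose and 0.123 FPKM in glucose, and a fold of 30.8 (10.2 to 153). It was also the gene with the fewest xylose counts in the group.

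Over the whole group the median fold was 8.50, with quartiles of 6.27 and 11.8 and a range of 4.44 to 625. The fold was from 4 to under 8 in 43 genes, from 8 to under 16 in 40 and at least 16 in 18. The lower bound of the fold's counting interval was above 4 for 91 of the 101 genes and the lowest such bound was 3.59. These bounds belong to genes chosen by a ratio of at least 4 and carry no pseudocount, so they describe counting precision and support neither the direction nor the place of a gene against the threshold. The 172 genes of at least 10 CPM in glucose had a median fold of 6.03, a highest fold of 30.5, and 6 genes at 16-fold or more. Both groups share the threshold on the ratio, whose pseudocount demands a larger fold from a gene of low glucose level, and no test of their difference was made.

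The share of genes reaching the threshold differed along the glucose level. Among genes past the count minimum it was 58.3% (7 of 12) below 1 CPM in glucose, 41.5% (17 of 41) from 1 to under 2.5 CPM, 21.0% (29 of 138) from 2.5 to under 5 CPM, 20.4% (28 of 137) from 5 to under 7.5 CPM and 13.4% (20 of 149) from 7.5 to under 10 CPM. The first 2 of these shares are set largely by the count minimum, which a gene almost without glucose reads can pass only through its xylose reads. Before that minimum, 172 genes of sufficient length lay below 1 CPM in glucose and 95 from 1 to under 2.5 CPM. Under the minimum were 222 genes below the glucose limit, and none of these (0) had a ratio of 4 or more, so it kept out no gene that the ratio would have let in.

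Within the group the level in xylose followed the level in glucose, with a Spearman correlation of 0.789 between the FPKM values across the 101 genes. These points share both libraries and a common divisor, the coding length, and the rule bounds their ratio from below, so the value describes the group and carries no test. The median xylose level was 9.58 FPKM in the 7 genes below 1 CPM in glucose, against a median of 0.334 FPKM for them in glucose. It was 68.8 FPKM in the 20 genes from 7.5 to under 10 CPM, against 7.92 FPKM in glucose.

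Coding length entered the rule directly only as a minimum. The count and glucose limits act on counts not divided by length, so the lengths below are not free of the selection. The median was 1158 bases for the 101 genes (quartiles 777 and 1659, range 306 to 6552) and 1032 bases for the 376 genes also below 10 CPM in glucose that did not reach the ratio. It was 883.5 bases for the 172 genes of at least 10 CPM in glucose, and 1218 bases for all 5643 genes with at least 50 counts. The threshold was reached by 15 of 97 low-level genes of over 300 to 600 bases (15.5%), 39 of 179 of over 600 to 1200 bases (21.8%), 28 of 118 of over 1200 to 1800 bases (23.7%) and 19 of 83 longer ones (22.9%). The median folds of the selected genes in these 4 length classes were 9.16, 8.29, 8.64 and 9.22. The ratio threshold cuts off lower folds in every class, so these medians cannot show how the difference varies with length. Across the 101 genes the Spearman correlation of coding length was 0.0995 with the fold and -0.62 with the xylose FPKM. The second value is largely built in, since FPKM divides by length while the rule bounds the undivided count, and with xylose CPM the correlation was 0.0761.

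**Figure D4:**
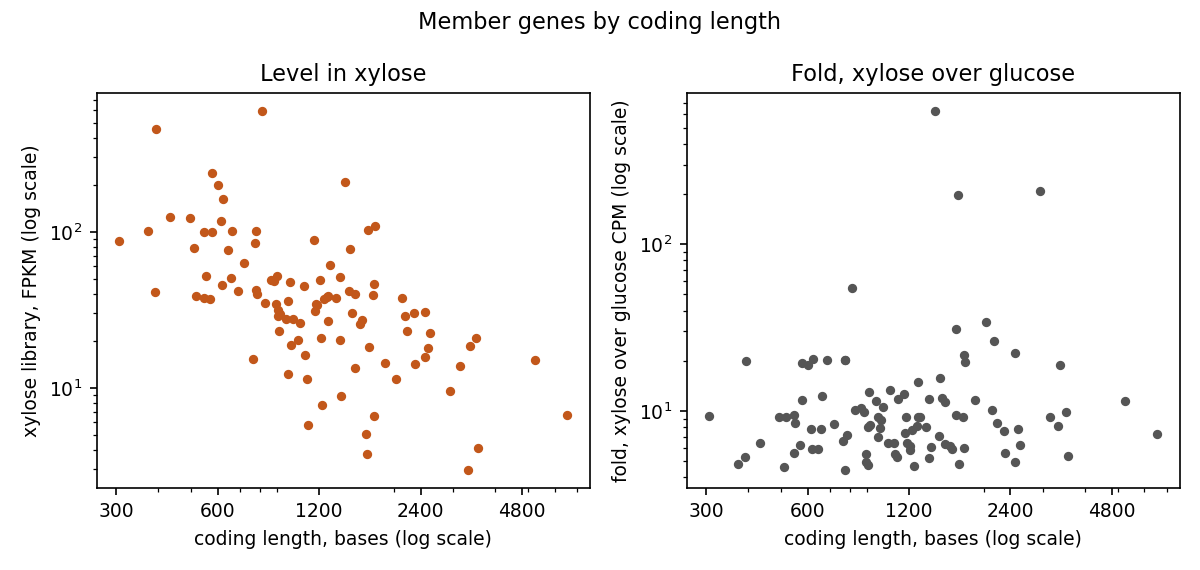
Level in xylose in FPKM (left) and fold of xylose over glucose CPM (right) against coding length in bases, all on log scales, for the 101 genes. The level per length is lower in longer genes (Spearman correlation -0.62) and the fold, bounded from below by the rule, shows no such slope (0.0995).

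The 101 genes were scattered over the ID numbers. They numbered 21, 16, 17, 21, 13 and 13 in successive blocks of 1000 IDs, the last block holding 880. The files do not say whether IDs follow the order on chromosomes. Within 5 ID numbers of each other lay 6 pairs. No background was computed for such pairs, so no clustering is read from them. CJ4940 and CJ4941 were the only 2 with consecutive IDs. The IDs on either side of this pair did not share its difference: CJ4939 had 14 counts in xylose and 75 in glucose, and CJ4942 had 991 counts in xylose and 1169 in glucose.

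Genes beside the others with the largest ratios are given for their position. Next to CJ2186, CJ2185 had 11 counts in xylose and 78 in glucose, and CJ2187 had 2258 counts in xylose and 2974 in glucose. Next to CJ3952, CJ3951 had 1 count in xylose and 0 in glucose, too few to show a difference or its absence, and CJ3953 had 1549 counts in xylose and 2814 in glucose. CJ0560 and CJ0562, beside CJ0561, had folds of 1.05 and 0.560. Of the 191 genes outside the group that had an ID next to one of its genes and at least 50 counts, 8 (4.19%) reached the ratio of 4 towards xylose. So did 183 of all 5542 genes outside the group with at least 50 counts (3.30%), a set that includes the 191. The median log2 ratio was -0.15 for the 191 genes and -0.29 for the 5542.

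The limits of the group were not gaps in the data. Just inside the ratio threshold, CJ0998 had 429 counts in xylose and 109 in glucose (ratio 4.03) and CJ0437 had 165 and 35 counts in the same order (ratio 4.04). Just outside it, CJ2052 had 435 and 114 counts (ratio 3.93) and CJ1980 had 312 and 79 counts (ratio 3.91). Just inside the glucose limit, CJ3670 had 46.2 CPM in xylose and 9.91 CPM in glucose, and CJ1021 had 193 CPM in xylose and 9.78 CPM in glucose. Just outside, CJ0838 had 57.5 CPM in xylose and 10.05 CPM in glucose, and CJ0965 had 57.4 CPM in xylose and 10.3 CPM in glucose. With a counting interval of 8.37 to 11.7 CPM for CJ3670 in glucose, genes on either side of that limit cannot be told apart at this depth.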

How the data were processed

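The authors deposited 1 table per library with raw read counts, FPKM values and coding lengths for 5880 genes. The counts are not normalised, per the file headers. The FPKM values deposited by the authors equal count over coding kilobases and column total per 1000000 counts (0 of 5880 values in each library beyond a relative tolerance of 1e-06), and all coding lengths are multiples of 3, so they hold no UTRs. Libraries were strand-specific with paired reads of 150 nt, per the labels' protocols. HISAT2 2.2.1 is named in the submitters' processing notes. Neither of these names the counting tool, strand setting, handling of multiply mapped reads, genome build or annotation, so near-identical or overlapping genes may share reads.

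From the counts, CPM on column totals, ratios with a pseudocount of 1 CPM, and exact conditional binomial (Clopper-Pearson) intervals of folds were computed with Python 3.11.15 and SciPy 1.17.1. Intervals of single glucose levels are exact Poisson intervals. Scaling alternatives used TMM of edgeR 4.0.16 and size factors of DESeq2 1.42.0 in R 4.3.3. The scripts were tested on simulated data. The selection rule, lists and alternatives were chosen with earlier results of these data known. Named genes were those with the 5 highest xylose FPKM values, the 5 highest log2 ratios, the 3 lowest glucose counts, consecutive IDs, or values nearest a limit. IDs flanking named genes were listed for their position. With 1 library per sugar no p-value was computed.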

Additional observations from a re-analysis of the deposited data

How the results depend on the processing

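The group's direction is fixed by its rule, so the alternatives show how far its size depends on the limits. The group held 129 genes with TMM scaling, 131 with median-of-ratios scaling, 118 with a pseudocount of 0.1, 104 without a length minimum, 139 with glucose below 20 CPM and 101 without a count minimum, and each of these sets contained all 101 genes. It held 62 genes with a pseudocount of 5, 60 with at least 500 counts, 53 with glucose below 5 CPM and 37 with a ratio of at least 8, all of them among the 101. Of all 5643 genes with at least 50 counts, 284 reached the ratio of 4 in the report. That number was 345 with TMM, 347 with median-of-ratios scaling, 307 with a pseudocount of 0.1 and 221 with a pseudocount of 5. Under these settings the group's size thus moved together with its background. No background was computed for a ratio of at least 8. The share of xylose counts was 0.641% with TMM, 0.646% with median-of-ratios scaling, 0.576% with a pseudocount of 0.1, 0.455% with a pseudocount of 5, 0.461% with at least 500 counts, 0.583% without a length minimum, 0.208% with glucose below 5 CPM, 0.907% with glucose below 20 CPM and 0.336% with a ratio of at least 8. The median xylose level was 56.0 CPM with a pseudocount of 5, 57.7 CPM with at least 500 counts, 27.6 CPM with glucose below 5 CPM, 53.6 CPM with glucose below 20 CPM and 68.4 CPM with a ratio of at least 8, against 40.9 CPM in the report. These shifts follow from which genes each limit admits. TMM moved the median log2 ratio of all compared genes from -0.27 to -0.01. The median of the 101 genes lay 3.04 above that of all genes with total counts and 3.02 above it with TMM. This lead is set by the ratio in the rule, and a rescaling shifts both medians by nearly the same amount. The likeness of the 2 values is therefore built in and is no check of the group. Of the 13 named members, the log2 ratio shifted by more than the counting error of its fold for 1 with TMM, 3 with median-of-ratios scaling, 2 with a pseudocount of 0.1 and 12 with a pseudocount of 5. For CJ2186 it ran from 5.78 to 9.01 and for CJ4940 from 2.69 to 6.91. With 1 library per sugar there was nothing to leave out. No paired analysis was possible because the labels give 1 library for each sugar.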

Other observations

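Besides the 101 genes, 3 genes met every condition except the coding length above 300 bases, and they are named for that reason after their values were seen. CJ3642 (234 bases) had 3932 counts in xylose and 22 in glucose, or 1287 FPKM in xylose and 6.38 FPKM in glucose, and a fold of 202 towards xylose (interval 133 to 322). Its level in xylose was above that of each of the 101 genes, at rank 194 of 5880. CJ3513 (279 bases) had 230 counts in xylose and 47 in glucose, and CJ1535 (276 bases) had 222 counts in xylose and 36 in glucose. FPKM values of such short genes rest on few positions.

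The genes below 10 CPM in xylose and at least 4-fold higher in glucose numbered 70. They held 0.0215% of the counts in xylose and 0.674% in glucose. Of their glucose counts, 1 gene held 50.6%, and without it the group's share in glucose was 0.333%. Their median level was 1.51 FPKM in xylose and 14.6 FPKM in glucose. Their median coding length was 1394 bases.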
